A study of Homo sapiens with 12 samples.

Results

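The genes described here encode 9 proteins of the BCL2 family and cytochrome c, which together set and carry out the mitochondrial step of apoptosis. They were chosen by name as pro-survival genes (BCL2, BCL2L1 and MCL1), effectors (BAX and BAK1), BH3-only genes (BCL2L11, BBC3, PMAIP1 and BID) and CYCS, and their RNA was followed in all 4 groups of the study. These are 10 of the 58288 gene IDs in the count table, and all 10 passed the filter on low counts with 13959 genes in all. RNA was sequenced from HK2 cells, an established human line of kidney proximal tubule origin, which carried either a short hairpin RNA (shRNA) against FLCN or a control shRNA. FLCN encodes folliculin, the protein lost in Birt-Hogg-Dubé syndrome, and an shRNA lowers the mRNA that it matches. By the labels, cells were harvested below 30 passages (short-term) or above 120 passages (long-term), which gave 4 groups of 3 libraries, nontarget and knockdown cells at each time. The study's methods set the long-term limit lower than the labels do. The labels call the nontarget cells WT and the libraries of a group biological replicates. All cells came through clonal selection, and which clone gave each library was not stated, so the effect of the shRNA and that of the clone cannot be told apart. P-values therefore measure only the spread between these libraries.

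Proteins of the BCL2 family share short BCL2 homology (BH) motifs and act mainly at the outer mitochondrial membrane. BAX and BAK1, once activated, form pores in that membrane, through which cytochrome c leaves the intermembrane space and meets APAF1 to build the apoptosome, the platform on which caspase 9 is activated. BCL2, BCL-XL (from BCL2L1) and MCL1 hold the effectors and their activators in check, and the BH3-only proteins BIM (from BCL2L11), PUMA (BBC3), NOXA (PMAIP1) and BID oppose them. Much of this control acts on the proteins, through binding, phosphorylation, cleavage and turnover, so the RNA levels given here describe supply of transcript only.

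Before the values, the regions just before the start sites of CYCS, BCL2L11, PMAIP1 and BAX are shown, because the first 3 of these genes changed in the results below and each window holds a known motif that bears on the gene or on factors downstream of FLCN. The sequences are RefSeq promoter windows on GRCh38.p14, read 5′ to 3′ on the strand of the gene and stopped where an exon of GENCODE 29 on that strand begins, and capitals mark the matches. In CYCS (chr7:25125362-25125510, minus strand) they mark the core of the site for NRF1, a factor for nuclear genes of mitochondrial respiration. In BCL2L11 (chr2:111120664-111120913, plus strand) they mark a forkhead motif, the kind that FOXO factors bind, in a window that lies within the GENCODE gene, downstream of its first start. In PMAIP1 (chr18:59899746-59899947, plus strand) they mark 4 GC boxes, the kind that SP1 binds. In BAX (chr19:48954625-48954814, plus strand) they mark 2 cores of the CLEAR element, the E-box form bound by TFEB and TFE3.
CYCS: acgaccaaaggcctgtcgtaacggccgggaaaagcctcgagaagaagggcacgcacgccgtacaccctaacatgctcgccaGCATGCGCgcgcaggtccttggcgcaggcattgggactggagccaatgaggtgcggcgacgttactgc
BCL2L11: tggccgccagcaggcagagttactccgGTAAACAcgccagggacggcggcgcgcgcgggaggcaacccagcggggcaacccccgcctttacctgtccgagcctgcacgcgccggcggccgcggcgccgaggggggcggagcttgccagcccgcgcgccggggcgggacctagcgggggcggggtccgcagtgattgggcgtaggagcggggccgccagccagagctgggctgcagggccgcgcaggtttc
PMAIP1: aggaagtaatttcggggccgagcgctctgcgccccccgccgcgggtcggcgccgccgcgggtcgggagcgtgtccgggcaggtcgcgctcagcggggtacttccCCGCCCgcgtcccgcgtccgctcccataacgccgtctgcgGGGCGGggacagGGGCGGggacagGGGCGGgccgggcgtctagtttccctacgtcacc
BAX: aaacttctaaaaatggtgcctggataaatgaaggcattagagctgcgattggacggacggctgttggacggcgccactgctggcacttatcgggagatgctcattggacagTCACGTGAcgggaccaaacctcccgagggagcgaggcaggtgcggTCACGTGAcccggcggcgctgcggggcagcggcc

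In all, 7 motifs were searched on both strands of the 250 bases before each start in 35116 windows of all genes, and 9 of the 10 members had a window. The NRF1 core GCATGCGC was found in 2.63% of all windows, and among the members only in that of CYCS, at bases -169 to -162 from the start. The forkhead motif TGTTTAC was found in 2.98% of windows, and among the members only in that of BCL2L11, at -223 to -217. The GC box GGGCGG was in 42.6% of windows, and in those of 5 of the 9 members with a window (BAX, BAK1, BCL2L11, PMAIP1 and BID). The CLEAR core TCACGTGA was found in 0.854% of windows and in those of BAX and BBC3, and it contains the E-box CACGTG, found in 6.34%. The BAX window held 4 E-boxes, 3 of them CLEAR cores, counting those in the exonic part that is not printed. The CRE motif TGACGTCA (1.65% of windows) and the E2F motif TTTCCCGC (1.39%) matched no window of a member. A match describes letters and not occupancy by a factor.

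Libraries held 5825779 to 8991051 counts. Values below are CPM, counts scaled to the TMM-adjusted library size, and each mean is given ± SD with n = 3. A gene was called where the quasi-likelihood test of edgeR, adjusted by Benjamini-Hochberg over all 13959 genes, gave p below 0.05. FLCN itself was 15.3 ± 2.25 CPM in short-term nontarget and 6.06 ± 0.469 in short-term knockdown cells, 2.51-fold lower (adjusted p = 1.12e-04), and 11.3 ± 1.23 against 6.99 ± 0.868 CPM in long-term cells, 1.63-fold lower (adjusted p = 0.00611). Of 7 proximal tubule markers, LRP2 and SLC22A6 had no count in any library and 1 had enough counts to be tested. That one was GGT1, which made up nearly all of their sum. The sum was 37.7 to 47.4 CPM without and 58.3 to 65.7 with knockdown in short-term libraries, and 28.1 to 46.4 and 59.3 to 78.4 in long-term libraries, and the part of this shift in the results below was not tested. The 3 epithelial keratins summed to 2140 to 3540 CPM. Markers of other nephron segments, endothelium and blood summed to at most 0.708 CPM, and 4 fibroblast markers to 13.9 to 41.2 CPM. Replicate 3 stood somewhat apart: the chi-square per degree of freedom between replicates 1 and 2 of a group was 2.07 to 4.93, and that between replicate 3 and either of them 4.06 to 11.9. Without replicate 3 in every group, an alternative chosen after seeing the data, the members called numbered 2 after short-term and 4 after long-term knockdown, as they did with all libraries.

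Levels were scaled per kilobase of all annotated exons of a gene. This lets genes be compared only roughly, because the isoforms used by these cells were not measured. On this scale BCL2L1 was the most abundant member in both nontarget groups and after short-term knockdown, at 76.6 to 80.0 CPM per kb. MCL1 was at 45.1 to 49.8 CPM per kb in all groups. CYCS was at 47.5 ± 3.60 CPM per kb in short-term nontarget and 39.6 ± 9.34 in long-term nontarget cells, overlapping MCL1 in both, and at 56.3 ± 4.99 after short-term knockdown, above MCL1 without overlap. BAX, BAK1 and PMAIP1 lay between 14.7 and 29.5 CPM per kb over the 4 groups and BID between 12.7 and 16.3. BCL2, BCL2L11 and BBC3 were the least abundant, at 1.13 to 2.70 CPM per kb. In long-term knockdown cells CYCS reached 65.1 ± 3.70 CPM per kb and stood first, although its range overlapped that of BCL2L1 at 59.7 ± 9.05. In these cells PMAIP1, at 14.7 ± 0.443 CPM per kb, lay below BID at 16.3 ± 1.61 without overlap, while in the other groups it lay above BID, also without overlap.

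**Figure D1:**
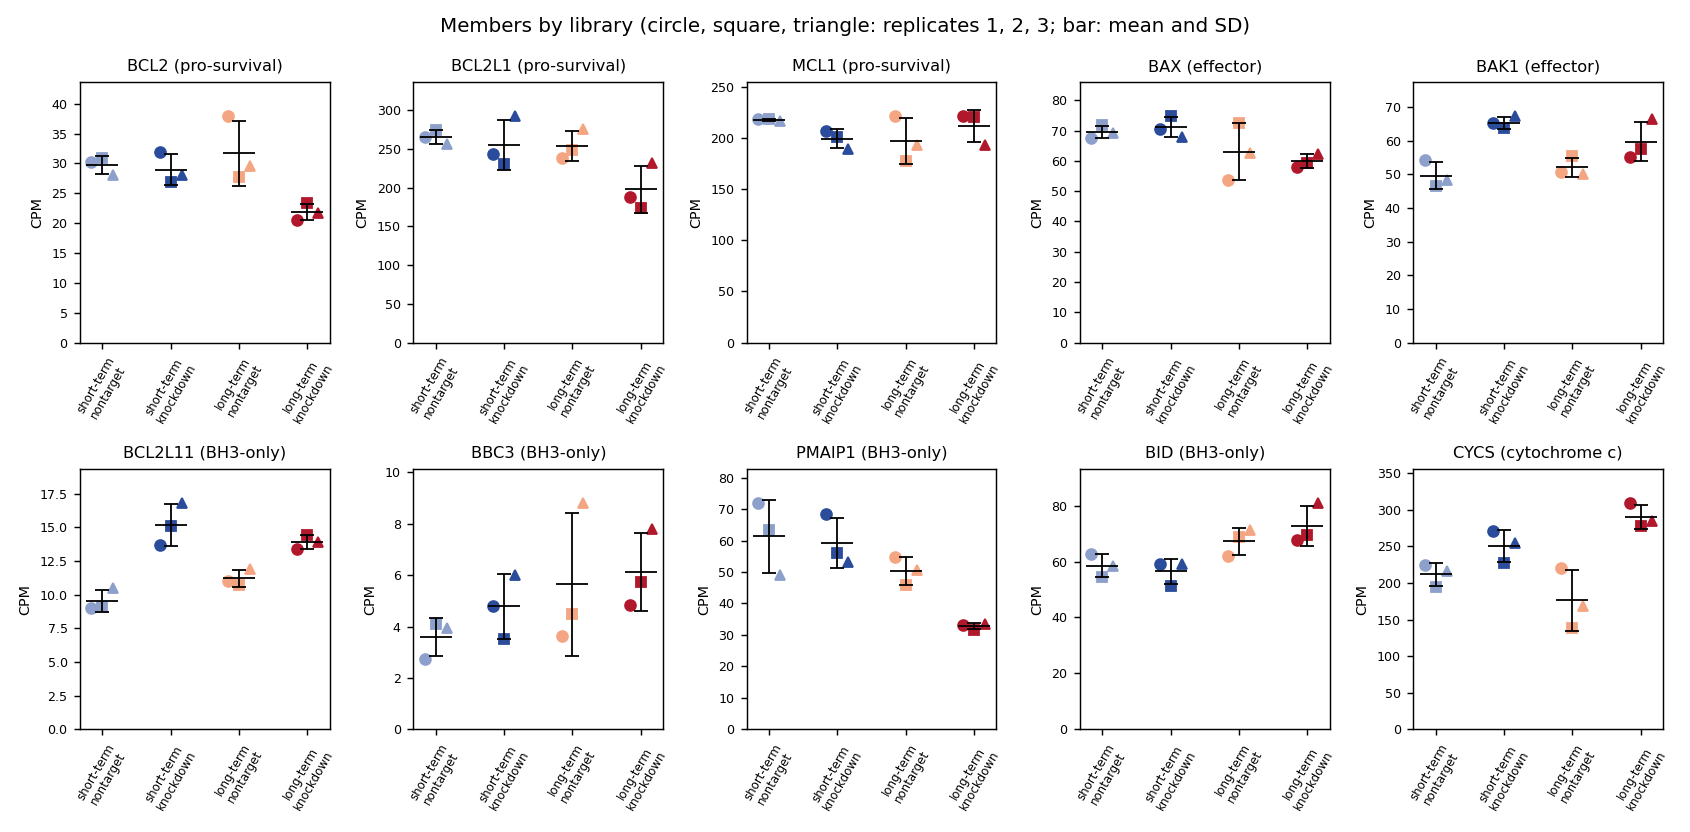
CPM of each member (vertical axes, from 0) in the 12 libraries by group. Circles, squares and triangles are replicates 1, 2 and 3, and the black bars are the group mean and SD. The 3 long-term knockdown libraries lie below all 9 others for BCL2 and PMAIP1 and above all 9 others for CYCS.

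Among the members, 2 of 10 were called after short-term knockdown, both higher, where 10.3% of all genes tested were called (5.62% higher and 4.71% lower). After long-term knockdown 4 of 10 were called, 1 higher and 3 lower, where 29.5% of all genes were called (13.7% higher and 15.8% lower). None of them reached a 2.5-fold change, a limit passed together with the p limit by 1.79% of genes after short-term and 6.61% after long-term knockdown. The median log2 fold change of the members was 0.00 short-term and 0.09 long-term, beside 0.00 for all genes in each. The members called in the short-term comparison were an effector and a BH3-only gene, and those called in the long-term comparison were 2 pro-survival genes, a BH3-only gene and CYCS.

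**Figure D2:**
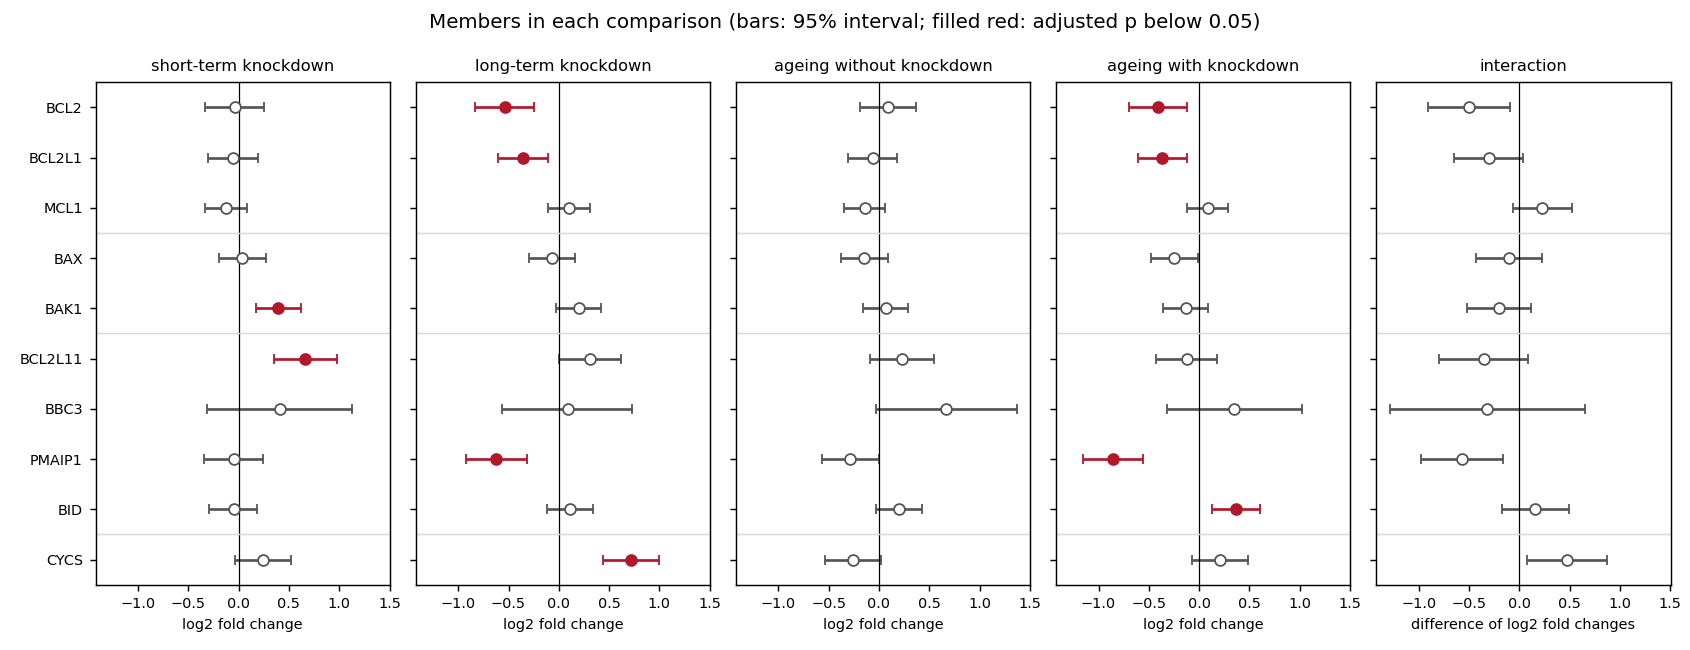
Log2 fold change of each member (horizontal axes) with its 95% interval, in the 2 knockdown comparisons (knockdown over nontarget), the 2 ageing comparisons (long-term over short-term) and, in the last panel, the long-term minus the short-term knockdown effect. Filled red points have an adjusted p below 0.05, namely BAK1 and BCL2L11 short-term, BCL2, BCL2L1, PMAIP1 and CYCS long-term, and BCL2, BCL2L1, PMAIP1 and BID with ageing under knockdown.

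Of the pro-survival genes, BCL2 and BCL2L1 fell after long-term knockdown, and none of the 3 was called after short-term knockdown. BCL2 (chr18:63123346-63320128, minus strand, GRCh38), the founding member, was measured at 37.9, 27.7 and 29.5 CPM in the long-term nontarget libraries and at 20.6, 23.3 and 21.7 in the long-term knockdown libraries. All knockdown libraries lay below all nontarget libraries, a separation found for 39.6% of genes in this comparison, 20.7% with the knockdown group below. The log2 fold change was -0.54 (SE 0.137, adjusted p = 0.00622), or 1.45-fold lower. In short-term cells BCL2 was 30.3, 31.0 and 28.1 CPM without and 31.9, 26.9 and 28.1 with knockdown. These groups overlapped, and the log2 fold change of -0.04 had a 95% interval of -0.33 to 0.25. In bulk RNA a lower level in each cell and a smaller share of cells with the transcript cannot be told apart.

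BCL2L1 (chr20:31664452-31723989, minus strand), whose main product BCL-XL protects mitochondria, gave 238, 248 and 275 CPM in long-term nontarget and 188, 174 and 232 in long-term knockdown libraries. The groups did not overlap, but replicate 3 of the knockdown group lay close to the lowest nontarget library. The log2 fold change was -0.36 (SE 0.116, adjusted p = 0.026). This call was lost on leaving out any of 3 libraries, with an adjusted p of up to 0.122 without replicate 2 of long-term knockdown. Short-term values were 265, 274 and 256 CPM without and 243, 230 and 292 with knockdown, which overlapped (log2 fold change -0.06, 95% interval -0.30 to 0.19).

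Counts per gene do not separate BCL-XL from the shorter, death-promoting BCL-XS isoform of BCL2L1. The gene also shares 1424 exonic bases with ABALON, an antisense RNA on the opposite strand. ABALON had 3744 counts in all against 20208 for BCL2L1, and it too was lower after long-term knockdown, at 33.4 ± 2.76 against 51.3 ± 6.42 CPM (log2 fold change -0.62, adjusted p = 0.00111). Whether counting used strand was not stated, so reads of the pair cannot be told apart in the shared bases.

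MCL1 (chr1:150574551-150579738, minus strand), a short-lived pro-survival protein, was not called in any comparison. It was 218, 218 and 216 CPM in short-term nontarget and 207, 201 and 189 in short-term knockdown libraries. The short-term knockdown libraries were the lower, without overlap, but the log2 fold change of -0.13 (95% interval -0.33 to 0.08) had an adjusted p of 0.485. Long-term libraries gave 221, 177 and 193 CPM without and 221, 220 and 193 with knockdown, which overlapped (log2 fold change 0.10, 95% interval -0.11 to 0.31). Of the summed pro-survival level per kb, MCL1 made up 38.1% to 48.0% in long-term knockdown libraries and 34.0% to 40.2% in long-term nontarget libraries, while BCL2L1 made up 50.1% to 60.4% and 57.2% to 64.0%. BCL2 contributed 1.59% to 2.57% of it in any library.

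Of the effectors, BAK1 rose after short-term knockdown and BAX was not called anywhere. BAK1 (chr6:33572547-33580293, minus strand), which resides at the mitochondrial membrane, was 54.1, 46.5 and 48.2 CPM in short-term nontarget and 65.2, 63.6 and 67.2 in short-term knockdown libraries. The groups did not overlap, as for 30.2% of genes in this comparison. The log2 fold change was 0.40 (SE 0.107, adjusted p = 0.0236), or 1.32-fold. The call was lost with library totals in place of TMM factors (log2 fold change 0.34, adjusted p = 0.0521) and on leaving out any of 4 libraries, with an adjusted p of up to 0.117 without replicate 2 of short-term nontarget.

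In long-term cells BAK1 was 50.7, 55.3 and 50.2 CPM without and 55.2, 57.5 and 66.3 with knockdown. The lowest knockdown library lay just under the highest nontarget library, and the log2 fold change of 0.20 (95% interval -0.03 to 0.42) had an adjusted p of 0.187. Reads of BAK1 pseudogenes amounted to 0.318% of its counts.

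BAX (chr19:48954815-48961798, plus strand), which moves from the cytosol to mitochondria when activated, was 67.5, 71.7 and 69.3 CPM in short-term nontarget and 70.6, 74.7 and 68.0 in short-term knockdown libraries. Long-term it was 53.7, 72.5 and 62.6 CPM without and 58.1, 59.4 and 62.4 with knockdown. Both pairs of groups overlapped, with log2 fold changes of 0.03 (95% interval -0.20 to 0.27) and -0.07 (-0.30 to 0.16). BAX and BBC3, the members with a CLEAR core in their windows, were not called in either knockdown comparison. Any part of TFEB or TFE3 in their values was not tested.

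Of the BH3-only genes, BCL2L11 rose after short-term and PMAIP1 fell after long-term knockdown, while BBC3 and BID were not called in either. BCL2L11 (chr2:111119378-111168447, plus strand) encodes BIM, which binds all the main pro-survival proteins. It was 9.02, 9.11 and 10.5 CPM in short-term nontarget and 13.7, 15.1 and 16.8 in short-term knockdown libraries. Every knockdown library was above every nontarget library. The log2 fold change was 0.66 (SE 0.150, adjusted p = 0.0079), or 1.58-fold, and it was called on leaving out any single library.

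In long-term cells BCL2L11 was 11, 10.7 and 11.9 CPM without and 13.4, 14.4 and 13.9 with knockdown. These groups did not overlap either, but the log2 fold change of 0.31 (SE 0.147) had an adjusted p of 0.129. BCL2L11 had 60 to 116 counts per library, far fewer than MCL1 or CYCS. It shares 727 exonic bases with MIR4435-2HG on the opposite strand, which was not called in either knockdown comparison, with log2 fold changes of 0.16 and -0.07.

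PMAIP1 (chr18:59899948-59904306, plus strand) encodes NOXA, which binds MCL1 and promotes its degradation. In long-term cells it was 54.8, 45.8 and 50.6 CPM without and 33.2, 31.7 and 33.6 with knockdown. The long-term knockdown libraries lay within 2 CPM of each other and below every other library of the study. The log2 fold change was -0.62 (SE 0.141, adjusted p = 0.00278), or 1.54-fold lower, and the call held on leaving out any single library. In short-term cells PMAIP1 was 71.9, 63.2 and 49.0 CPM without and 68.3, 56.1 and 53.1 with knockdown, which overlapped (log2 fold change -0.05, 95% interval -0.34 to 0.24).

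BBC3 (chr19:47220822-47232766, minus strand), which encodes PUMA, had only 20 to 68 counts per library. It was 2.73, 4.10 and 3.93 CPM in short-term nontarget and 4.81, 3.51 and 6.02 in short-term knockdown libraries. Long-term it was 3.62, 4.49 and 8.80 CPM without and 4.85, 5.72 and 7.80 with knockdown. The 95% intervals of its log2 fold changes, -0.31 to 1.13 and -0.56 to 0.73, were the widest of the members and include a change of 1.5-fold. Its replicates also spread widely, and without replicate 3 of long-term nontarget the long-term log2 fold change was 0.57 in place of 0.09.

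BID (chr22:17734138-17774770, minus strand), which caspase 8 cleaves to link death receptors to mitochondria, was 62.7, 54.4 and 58.3 CPM in short-term nontarget and 59.0, 51.3 and 59.1 in short-term knockdown libraries. Long-term it was 61.9, 68.8 and 71.2 CPM without and 67.8, 69.3 and 80.9 with knockdown. The groups overlapped in both, and the log2 fold changes were -0.05 (95% interval -0.29 to 0.18) and 0.11 (-0.12 to 0.34).

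CYCS (chr7:25120091-25125361, minus strand), the respiratory electron carrier that triggers the apoptosome once released, showed the largest rise of the members. It was 221, 139 and 169 CPM in long-term nontarget and 309, 277 and 285 in long-term knockdown libraries. All knockdown libraries were higher, although the nontarget libraries spread widely. The log2 fold change was 0.72 (SE 0.134, adjusted p = 5.22e-04), or 1.64-fold, and leaving out single libraries moved it between 0.56 and 0.91. In short-term cells CYCS was 225, 194 and 216 CPM without and 271, 227 and 254 with knockdown. These groups did not overlap, but the log2 fold change of 0.24 (95% interval -0.04 to 0.52) had an adjusted p of 0.298. Of 40 pseudogenes named after CYCS, 3 had counts, which amounted to 0.108% of those of CYCS.

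The genes next to CYCS on chromosome 7 moved the same way. The 40 tested genes nearest to it, within a span of 5.10 Mb, had a median log2 fold change of 0.52 after long-term knockdown, with 19 called higher and 2 lower, and the median of chromosome 7 was 0.25. After short-term knockdown the median of these neighbours was 0.00, with 3 higher and 2 lower. The neighbours of BCL2L11 had a median of 0.26 after short-term knockdown (8 higher and 2 lower), on a chromosome 2 whose median was 0.31, but of -0.16 after long-term knockdown (none higher and 16 lower). The neighbours of BAK1, by contrast, had a median of 0.00 short-term. Those of BCL2L1 had a median of -0.02 long-term (2 higher and 13 lower). BCL2 and PMAIP1 both lie on the long arm of chromosome 18, and their 40 neighbours, taken from windows of 18.5 and 17.8 Mb, had medians of -0.16 and -0.13 long-term. The part of copy number in the values of CYCS and BCL2L11 was not tested.

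**Figure D3:**
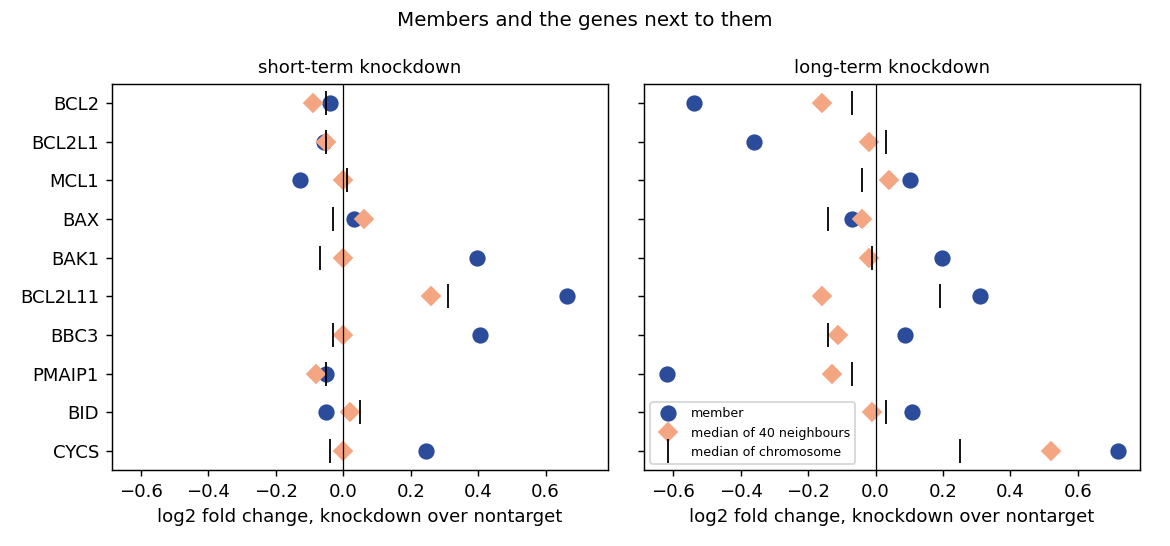
Log2 fold change of each member (blue circles), the median of its 40 nearest tested genes (orange diamonds) and the median of its chromosome (black ticks), for short-term knockdown on the left and long-term knockdown on the right. For CYCS long-term the neighbours lie at 0.52 beside 0.72 for the gene, while for BAK1 short-term they lie at 0.00 beside 0.40.

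Pro-survival and pro-death transcripts were set against each other within each library for 10 pairs. These were a selection from the possible pairs, in which genes recur. Short-term the ratio was lower with knockdown without overlap in 4 pairs and overlapped in 6. Long-term it was lower in 4, higher in 1 and overlapped in 5. All lower pairs held BAK1 or BCL2L11 short-term and BCL2 or BCL2L1 long-term, so they are not separate observations. Among single genes 30.2% short-term and 39.6% long-term did not overlap, and the share for ratios of other genes was not computed. MCL1 to BAK1 overlapped long-term (0.93 ± 0.22 against 0.84 ± 0.25), and BCL2 to BAX and MCL1 to BBC3 overlapped at both times. The log2 ratio of BCL2 to BCL2L11 per kb was 0.82 ± 0.20 in short-term nontarget and 0.11 ± 0.25 in short-term knockdown cells, and 0.67 ± 0.26 and -0.17 ± 0.04 in long-term cells. In each pair the knockdown libraries lay below the nontarget libraries without overlap. The log2 ratio of BCL2L1 to BAK1 was 1.84 ± 0.13 against 1.37 ± 0.14 short-term and 1.70 ± 0.15 against 1.14 ± 0.11 long-term, again without overlap. That of BCL2L1 to BAX overlapped short-term, at 1.57 ± 0.05 and 1.48 ± 0.25, and long-term, at 1.66 ± 0.21 and 1.35 ± 0.17. The ratio of MCL1 to PMAIP1, a pair whose proteins bind each other, went the other way, from 1.00 ± 0.04 in long-term nontarget to 1.72 ± 0.15 in long-term knockdown cells, where short-term it was 0.88 ± 0.28 and 0.79 ± 0.14. These ratios describe the values above and were given no test of their own.

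**Figure D4:**
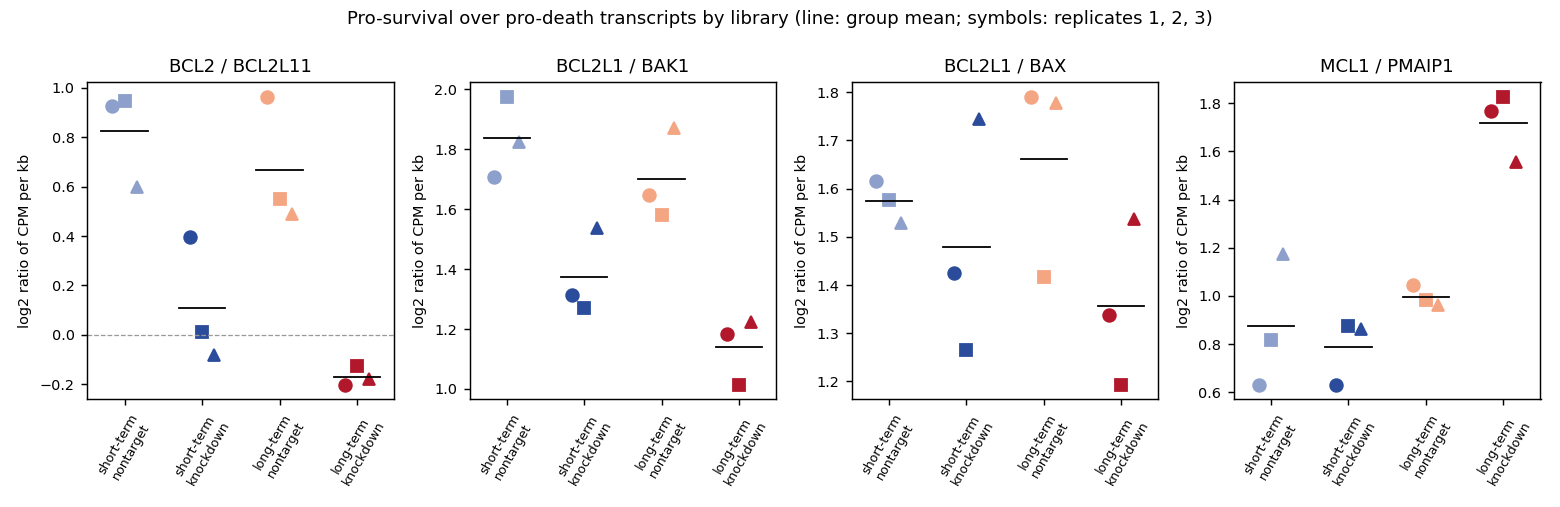
Log2 ratio of CPM per kb of a pro-survival to a pro-death gene (vertical axes) in the 12 libraries by group. Symbols are replicates 1, 2 and 3, black lines are group means, and the dashed line in the first panel marks equal CPM per kb of annotated exon. BCL2 to BCL2L11 and BCL2L1 to BAK1 are lower with knockdown in both pairs of groups, while MCL1 to PMAIP1 is higher in the long-term knockdown libraries.

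Summed over a class, per kb, pro-survival transcripts were 129 to 135 CPM in short-term nontarget, 118 to 134 in short-term knockdown, 118 to 130 in long-term nontarget and 105 to 116 in long-term knockdown libraries. Only the last group lay below all others. The effectors summed to 48.6 to 50.6 CPM per kb in short-term nontarget and 56.7 to 57.6 in short-term knockdown libraries, and to 43.7 to 53 and 47.4 to 54.1 in long-term libraries. BH3-only genes summed to 33.6 to 37.8 CPM per kb in long-term knockdown libraries and 37.9 to 48.5 in all others, a sum to which PMAIP1 and BID contribute most.

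In nontarget cells, comparing the later with the earlier passages, none of the 10 was called by edgeR, where 7.55% of all genes were called (3.17% higher, 4.38% lower and 1.88% past 2.5-fold). At an unadjusted p below 0.05 there were also 0 of 10, where 19.4% of all genes passed, and DESeq2 called 0. The lowest p-values were those of PMAIP1 (log2 fold change -0.28, adjusted p = 0.268), BBC3 (0.67, adjusted p = 0.282) and CYCS (-0.26, adjusted p = 0.302). The value of BBC3 was 0.17 without replicate 3 of long-term nontarget. Without replicate 3 of every group PMAIP1 was called (log2 fold change -0.43, adjusted p = 0.0213). CYCS was called lower with the replicate number as a block (adjusted p = 0.0482) and without replicate 1 of long-term nontarget (log2 fold change -0.46, adjusted p = 0.0284). The neighbours of CYCS had a median of -0.36 in this comparison (12 lower and none higher), beside -0.22 for chromosome 7.

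With FLCN knockdown, 4 of 10 differed between later and earlier passages, 1 higher and 3 lower and none past 2.5-fold, where 26.6% of all genes were called (11.5% higher, 15.2% lower and 6.25% past 2.5-fold). PMAIP1 fell from 59.2 ± 8.06 to 32.8 ± 0.991 CPM, with a log2 fold change of -0.85 (SE 0.141, adjusted p = 2.09e-04), and its groups did not overlap, with the later one below as for 19.8% of genes. BCL2 fell from 29 ± 2.59 to 21.9 ± 1.39 CPM (log2 fold change -0.41, adjusted p = 0.0362). BCL2L1 fell from 255 ± 32.9 to 198 ± 30.0 CPM (log2 fold change -0.37, adjusted p = 0.0266), though its libraries overlapped. BID rose from 56.5 ± 4.45 to 72.7 ± 7.17 CPM (log2 fold change 0.36, adjusted p = 0.0218). With only these 2 groups in the fit, PMAIP1 alone was called, and the adjusted p was 0.0519 for BCL2 (0.0614 with no filter on low counts), 0.0727 for BCL2L1 and 0.0585 for BID. Leaving out single libraries also ended these 3 calls, with an adjusted p of up to 0.15 for BCL2 without replicate 1 of short-term knockdown, 0.121 for BCL2L1 without replicate 2 of long-term knockdown and 0.0968 for BID without replicate 2 of short-term knockdown. These comparisons share libraries with the knockdown comparisons, so the falls of BCL2, BCL2L1 and PMAIP1 in both rest on the same 3 long-term knockdown libraries.

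Whether knockdown acted differently at the later and earlier passages was tested directly as an interaction. No member was called by edgeR or by DESeq2, where edgeR called 13.4% of all genes (4.98% higher, 8.43% lower and 5.44% past 2.5-fold), and 3 of 10 had an unadjusted p below 0.05, where 26.5% of all genes did. These were PMAIP1 (difference of log2 fold changes -0.57, SE 0.196, adjusted p = 0.0642), BCL2 (-0.50, SE 0.193, adjusted p = 0.101) and CYCS (0.47, SE 0.188, adjusted p = 0.111). PMAIP1 and CYCS passed with no filter on low counts, at adjusted p = 0.041 and 0.0401, and PMAIP1 passed without replicate 3 of every group, at 0.0455. With the replicate number as a block both passed, at 0.0118 for PMAIP1 and 0.00803 for CYCS. PMAIP1 also passed without replicate 1 of short-term nontarget (0.0332) or replicate 3 of short-term knockdown (0.0417), and CYCS without replicate 1 of long-term nontarget (0.00867). The neighbours of CYCS had a median difference of 0.57, with 13 called higher and 1 lower. For BAK1 the difference was -0.20 (95% interval -0.52 to 0.12) and for BCL2L11 -0.35 (-0.80 to 0.09), so that their calls in the short-term comparison alone do not show a difference between the times.

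The other genes of the pathway were taken from 7 lists of 69 genes, of which 65 could be tested. After short-term knockdown 8 of the 65 were called, 7 higher and 1 lower, and after long-term knockdown 24, 9 higher and 15 lower. Beside the 10.3% and 29.5% of all genes called, these shares stand near the background. The interaction called 14 of the 65, 1 higher and 13 lower, beside 13.4% of all genes. The median log2 fold change over the 65 was 0.10 short-term and -0.01 long-term.

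Of 13 other BCL2 family genes tested, 3 were higher after short-term and 2 lower after long-term knockdown. HRK, a BH3-only gene known mainly from neurons, had 1, 0 and 1 counts in short-term nontarget and 58, 62 and 30 in short-term knockdown libraries. With 2 counts in the nontarget group, the ratio of 74.5 had a 95% interval of 20.3 to 621 that covers counting error only (adjusted p = 2.51e-06 in edgeR). In long-term cells HRK went the other way, with 11, 11 and 12 counts without and 2, 1 and 5 with knockdown (log2 fold change -2.01, adjusted p = 0.00874). Without replicate 3 of long-term knockdown, the library with 5 counts, the log2 fold change was -2.91. BNIP1 rose short-term from 13.4 ± 2.99 to 21.8 ± 1.89 CPM (adjusted p = 0.0148), and BNIP3, an atypical member that acts in mitophagy, from 95.7 ± 8.32 to 134 ± 14.5 CPM (adjusted p = 0.0165). BCL2L15 fell long-term from 2.46 ± 0.555 to 0.193 ± 0.0912 CPM (adjusted p = 4.28e-05), on 4 counts in the knockdown group.

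Downstream of cytochrome c, 8 genes of the apoptosome and caspases were tested, with 1 called higher and 3 lower long-term and none short-term. APAF1, the scaffold of the apoptosome, fell long-term by 0.35 on the log2 scale (adjusted p = 0.0314). CASP6, the only one higher, rose by 0.53 (adjusted p = 0.0366). So the transcript of CYCS was higher and that of APAF1 lower in the same 3 libraries. Neither APAF1 nor CASP6 was called short-term. The call of APAF1 was lost without replicate 3 of every group (adjusted p = 0.0715) and that of CASP6 with library totals (0.0655).

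Of 8 inhibitors of apoptosis and their antagonists, 2 were higher short-term, and 4 were higher and 1 lower long-term. BIRC7 (livin), which binds caspases, rose in both, from 7.49 ± 0.695 to 28.9 ± 5.66 CPM short-term (adjusted p = 1.29e-05) and from 14 ± 3.86 to 46.2 ± 7.75 CPM long-term (adjusted p = 2.6e-06). HTRA2, a mitochondrial protease that antagonizes these inhibitors, rose from 24.7 ± 0.696 to 39.6 ± 2.86 CPM (adjusted p = 0.00242) and from 22.3 ± 2.29 to 36.7 ± 4.89 CPM (adjusted p = 4.25e-04). HTRA2 shares exonic bases with AUP1 and LOXL3 on the opposite strand and lies on chromosome 2, as do CFLAR and BIRC6, whose median was 0.31 short-term and 0.19 long-term. BIRC6 rose long-term by 0.68 on the log2 scale (adjusted p = 0.00824) and BIRC3 fell by 1.19 (adjusted p = 0.0135).

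Of 9 genes of the death receptor branch, 1 was higher short-term, and 1 was higher and 2 lower long-term. FAS, a death receptor, was 18.5, 17.8 and 17.5 CPM in long-term nontarget and 7.05, 8.51 and 6.28 in long-term knockdown libraries (log2 fold change -1.30, adjusted p = 3.44e-05). TNFSF10, the ligand TRAIL, rose from 24.9 ± 3.78 to 43.8 ± 10.6 CPM (adjusted p = 0.0219). CFLAR, which blocks caspase 8 at the receptor, rose short-term from 92.5 ± 5.01 to 137 ± 19.9 CPM (adjusted p = 0.00422) and fell long-term from 90.7 ± 10.3 to 69.7 ± 5.45 CPM (adjusted p = 0.0234). Of 8 genes of the mitochondrial membranes and intermembrane space, VDAC2, a partner of BAK1, rose short-term from 167 ± 7.13 to 220 ± 13.6 CPM (adjusted p = 0.00845). OPA1, which keeps the cristae that hold cytochrome c, rose long-term from 151 ± 22.2 to 225 ± 26.1 CPM (adjusted p = 0.00123).

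Among genes of the DNA damage response that share regulators with BAX, BBC3 and PMAIP1, CDKN1A, which halts the cell cycle, fell long-term from 76.0 ± 24.0 to 25.7 ± 4.6 CPM (adjusted p = 9.8e-06) and GDF15, a secreted stress factor, from 31.8 ± 11.2 to 15.2 ± 3.09 CPM (adjusted p = 0.00262). FDXR, a mitochondrial reductase, rose from 12.6 ± 1.42 to 22.0 ± 2.96 CPM (adjusted p = 0.00381). None of these 3 was called short-term, and of BAX, BBC3 and PMAIP1 only PMAIP1 was called long-term.

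Of 7 other genes whose products regulate transcription of BH3-only genes, 1 was lower short-term, and 1 was higher and 3 lower long-term. FOXO3, a known activator of BCL2L11, fell in both, from 34.4 ± 1.73 to 19.4 ± 1.13 CPM short-term (adjusted p = 3.32e-04) and from 35.0 ± 0.889 to 18.1 ± 2.28 CPM long-term (adjusted p = 1.83e-05). BCL2L11 was called higher short-term, and any part of FOXO3 in its values was not tested. TP73 fell long-term from 4.38 ± 1.72 to 1.58 ± 0.266 CPM (adjusted p = 0.00297) and E2F1 from 94.8 ± 19.0 to 57.0 ± 16.3 CPM (adjusted p = 0.0164). TRIB3, a pseudokinase induced by stress, was called higher long-term, at 116 ± 29.8 against 78.6 ± 18.6 CPM (adjusted p = 0.0427), with overlapping groups, and not with library totals (0.0616).

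**Figure D5:**
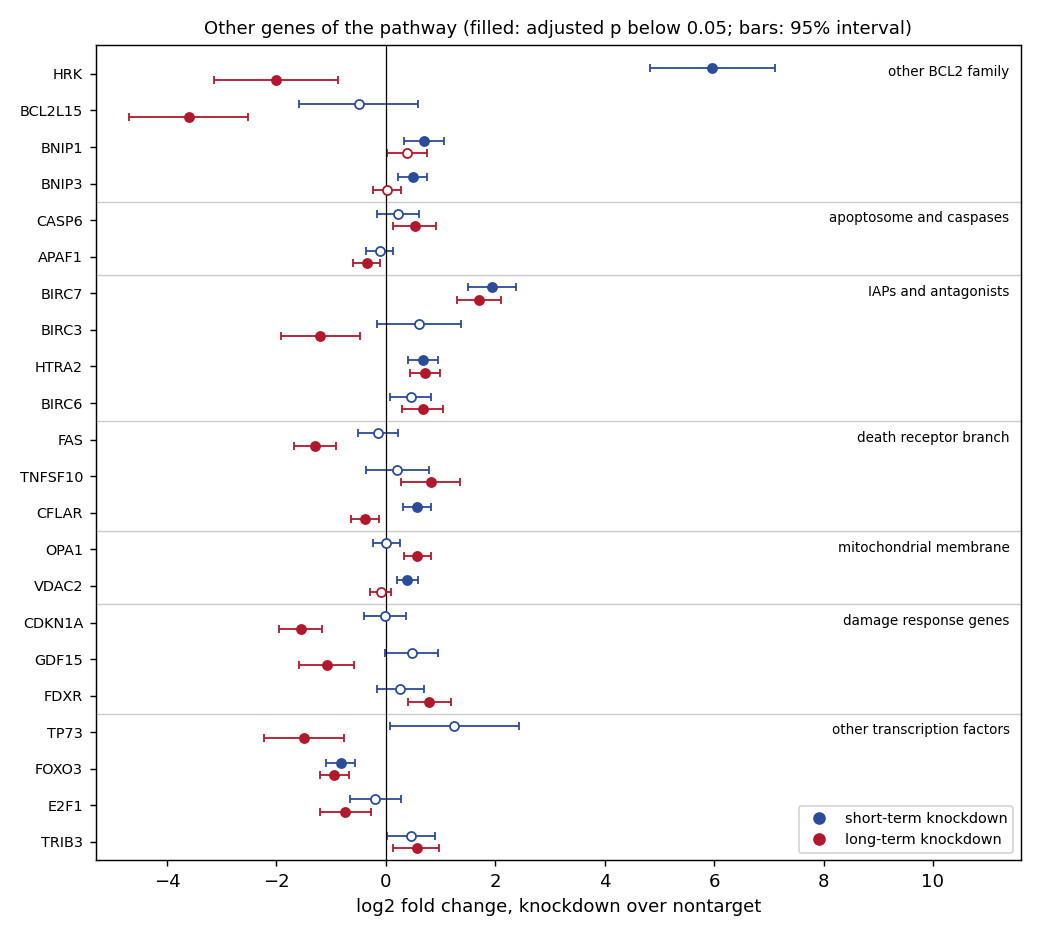
Log2 fold change after short-term (blue) and long-term (red) knockdown with 95% intervals for the 22 named genes of the 7 pathway lists, grouped by list. Filled points have an adjusted p below 0.05. HRK and CFLAR are higher short-term and lower long-term, BIRC7 and HTRA2 are higher in both, and FOXO3 is lower in both.

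Over the 12 libraries, members differed in the genes whose log2 CPM followed theirs most closely among 10189 genes. As a description over libraries that share groups, the highest Pearson correlation was 0.924 for BCL2 (with NDFIP2), 0.964 for BCL2L1 (ACTN4), 0.939 for BAK1 (BIN1), 0.963 for BCL2L11 (SHISAL1), 0.945 for PMAIP1 (EMP3), 0.952 for BID (MCRIP1) and 0.962 for CYCS (GIN1). The next closest to CYCS were NDUFAF6 (0.957), a factor for assembly of respiratory complex I, and MBNL1 (0.954). Among the members themselves the closest pairs were BCL2 and PMAIP1 (0.82) and BAK1 and BCL2L11 (0.81), and the most opposed were PMAIP1 and BID (-0.68).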

How the data were processed

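HK2 RNA was measured in 12 libraries of polyA RNA. According to their methods and processing notes, the authors made libraries with a TruSeq RNA kit v2, sequenced them on a MiSeq, trimmed reads with fastp, mapped them with STAR, counted them per gene with featureCounts and tested them with DESeq2, on build GRCh38. Versions, annotation release and strand setting are not given in the sources used here. The deposited values were counts, identical in the table and the library files, and the authors' normalized columns (unit score, counts divided by 1 factor per library and rounded) were used for a check only. Counts were fitted in R 4.3.3 with edgeR 4.0.16 in 1 model of 12 libraries and 4 groups: filterByExpr (13959 genes, 99.8% of counts), TMM factors, robust quasi-likelihood test, two-sided, prior count 0.125. Standard errors were obtained as the absolute log2 fold change divided by the square root of F. IDs, positions and exonic lengths came from GENCODE 29, which held all members with the same ID version. Promoter windows came from RefSeq on GRCh38.p14. Members, lists and tests were chosen with earlier results of these data known. Named pathway genes were up to 4 per list with the largest change among those called in a knockdown comparison, of which some are not reported here, and genes alike had a mean of at least 50 counts. Simulated data with 200 genes changed 3-fold gave 90.5% recovery short-term, 90% long-term, 90.5% and 91% for ageing without and with knockdown and 79.5% for the interaction, on 13959 genes each. No member changed as much as 3-fold in any comparison, so these shares do not give the recovery of changes as small as theirs. Libraries with the same replicate number deviated together in short-term knockdown, long-term nontarget and long-term knockdown (correlations of deviations 0.211 to 0.672), but not throughout with short-term nontarget (-0.195 to 0.216), and no label says what the number marks. Pairs of libraries with other numbers reached 0.383, and 9 of 36 were above 0.1, beside 11 of 18 with the same number. So the data pair the groups by number only in part, and the fit with the number as a block was an alternative. Alternatives were RLE factors, library totals, DESeq2 1.42.0, no filter, a mean of at least 10 CPM, a block, 2 groups only, each library left out, a 2.5-fold limit and, added after seeing the data, no replicate 3. Figures were drawn with matplotlib.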

Additional observations from a re-analysis of the deposited data

Results flagged for a closer look

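In the interaction test of edgeR (the long-term minus the short-term log2 effect, with the adjusted p after it) no member passed the threshold, though PMAIP1 and CYCS did with the replicate number as a block. Of the 65 pathway genes tested 14 passed, beside 13.4% of all genes, and 10 of these are among the named genes, which were picked for large called changes. Of the other BCL2 family, these were HRK at -7.98 (3e-06), a value set by a short-term nontarget group with 2 counts, and BCL2L15 at -3.11 (0.013). BIRC3 differed by -1.79 (0.0228). In the death receptor branch, FAS differed by -1.15 (0.00404) and CFLAR by -0.95 (7.99e-04), and at the mitochondria OPA1 by 0.57 (0.0309) and VDAC2 by -0.49 (0.0146). Of the damage response genes, CDKN1A differed by -1.54 (5.94e-04) and GDF15 by -1.56 (0.00413). TP73 differed by -2.75 (0.00838). OPA1 was the only one of these 10 with a more positive long-term effect.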

How the results depend on the processing

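The calls of BCL2L11 short-term and of BCL2, PMAIP1 and CYCS long-term, and that of PMAIP1 with ageing under knockdown, held under all alternatives run except the 2.5-fold limit, under which the members called were 0 in every comparison. With library totals 1 member was called short-term. With no filter 2 members were called in the interaction and BCL2 was lost in ageing with knockdown (0.0614), and with 2 groups only 1 in ageing with knockdown. At a mean of at least 10 CPM, ageing without knockdown called 1 pathway gene and 666 genes in all. Without replicate 3 in every group it called 1 member, 8 pathway genes and 1586 genes, the interaction called 1 member and the short-term comparison 14 pathway genes. With the replicate number as a block (its pairing is described under the processing) no call of a member changed in either the long-term comparison or ageing with knockdown, while 15 pathway genes and 2359 genes were called short-term, 1 member (CYCS), 10 and 1786 in ageing without knockdown, and 2 members (PMAIP1 and CYCS) and 2879 genes in the interaction. Leaving out 1 library gave 1 to 2 members, 6 to 9 pathway genes and 874 to 1688 genes short-term (874 without replicate 1 of short-term nontarget), 3 to 4, 18 to 27 and 3295 to 4521 long-term, 0 to 1, 2 to 6 and 581 to 1288 in ageing without knockdown (581 without replicate 1 of short-term nontarget), 2 to 4, 19 to 26 and 2829 to 3872 in ageing with knockdown, and 0 to 1, 10 to 17 and 1463 to 2291 in the interaction. Signs reversed only in values that were not called: BAX short-term with library totals (-0.02), BBC3 in the interaction without replicate 3 in every group (0.08), and on leaving out 1 library BCL2 (-0.12 to 0.01), BCL2L1 (-0.17 to 0.01), BAX (0.00 to 0.06), PMAIP1 (-0.19 to 0.08) and BID (-0.10 to 0.01) short-term, BAX (-0.17 to 0.03) and BBC3 (-0.16 to 0.57) long-term, BCL2 in ageing without knockdown (-0.06 to 0.17) and BBC3 in the interaction (-0.56 to 0.16). Among pathway genes, APAF1, CASP6, TRIB3 and TNFSF10 long-term were not called in 4 of the 12 fits that left out 1 library, and BNIP1 and BNIP3 short-term and CFLAR and E2F1 long-term in 3. HRK long-term (adjusted p = 0.0538 without replicate 1 of long-term knockdown), BIRC3 (0.0687 without replicate 1 of long-term nontarget), BIRC6 (0.0501 without replicate 2 of long-term knockdown) and VDAC2 short-term (0.0596 without replicate 1 of short-term nontarget) lost their call in 1 fit each. RLE factors moved the median of all genes by at most 0.005 and library totals by at most 0.056 on the log2 scale. The causes were not tested. Among the genes named, BCL2L15 (87 counts over the 12 libraries), TP73 (161) and HRK (194) rest on the fewest counts, and BBC3 on the fewest among members (419).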
